A study of Homo sapiens with 6 samples.

Results

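In BT549, a human triple-negative breast cancer line, 821 wide SMAD2/3 binding regions were listed 1.5 h after TGFβ3 and had no counterpart in any of the other 3 peak lists of the series. They were chosen from the 9225 peaks of the BT549 1.5 h list, which is 1 of 4 lists with 20600 peaks in all. A region was taken if it was at least 150 bp wide, had a peak score of at least 100 and shared no base with a peak of BT549 at 16 h or of Hs578T, another triple-negative line, at either time. The score is the value the authors' peak caller gave each peak, and it was read only within its own list. The choice therefore rests on measured values (width, score and absence from the other lists), and these are given below as a description with no test.

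The study precipitated sonicated chromatin with an antibody against SMAD2/3 and sequenced it (ChIP-seq). The 4 libraries were BT549 with TGFβ3 for 16 h, BT549 with TGFβ3 for 1.5 h, Hs578T with TGFβ3 for 16 h and Hs578T with TGFβ3 for 1.5 h, each present once. Both lines were grown in medium with serum and insulin, and recombinant human TGFβ3 was added to the cells of all 4 libraries. Input DNA, labelled untreated, exists for each line and was not analysed here, and no untreated SMAD2/3 library is among the samples used. With a single library per condition there is no replicate spread, no difference between conditions could be tested, and read depth is unknown, so a peak absent from a list may have been bound below the calling threshold.

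The TGFβ signal is carried to the genome by SMAD2 and SMAD3, a pair of related transcription factors. The activated receptor kinase phosphorylates them, they join SMAD4 and move into the nucleus, and there they bind short DNA elements, mostly beside other transcription factors that differ between cell types. Phosphorylation peaks soon after ligand arrives and is then held down by inhibitory SMADs, ubiquitin ligases and phosphatases, which is why early and late time points are commonly set side by side.

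The 821 regions were not the strongest peaks of their list, though the score limit placed them among its 3866 highest-scoring peaks. Their median score was 127 (interquartile range 112 to 153), with a lowest of 100.05 and a highest of 392. The highest ranked 314 in the BT549 1.5 h list and the lowest ranked 3863. Widths ran from 151 to 795 bp, with a median of 330 bp, and together the regions covered 278 kb. For comparison, 2307 peaks of the same width and score limits had a BT549 16 h peak and no Hs578T peak, here called the peaks held at both times. Those had a median score of 190 (136 to 279) and a median width of 418 bp. Score and width rose together among the 1.5 h-only regions (Spearman's rho 0.47 over 821 regions), less closely than among the held peaks (0.70 over 2307), as a description of values that come from the same reads.

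**Figure D1:**
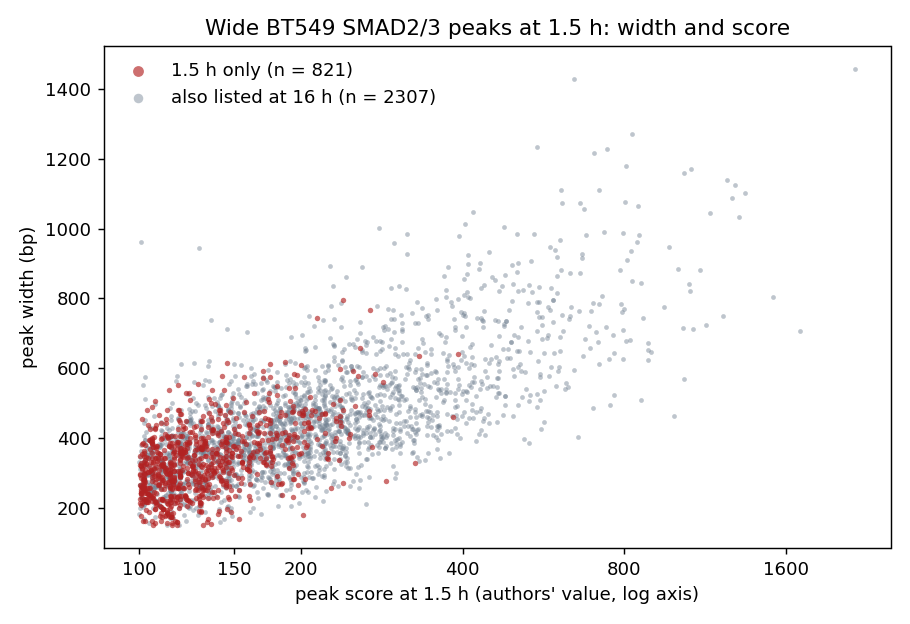
Width in bp against peak score on a log axis for BT549 1.5 h peaks of at least 150 bp and a score of at least 100; each point is a peak, red for the 821 listed at 1.5 h only and grey for the 2307 also listed at 16 h. The red points end at a score of 392, while grey points reach 2152.

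Of the BT549 1.5 h peaks that met the width and score limits, 821 of 3253, or 25.2%, had no peak in the other 3 lists, against 57.7% of all 9225 peaks of that list. Without regard to Hs578T, 58.6% of the 9225 had no BT549 16 h peak. Since the choice used these overlaps, nothing is read from that difference. Within the limits, the share of 1.5 h-only regions fell step by step with score. It was 46.9% (43.5 to 50.3, 95% Wilson interval) at scores of 100 to 125, with 392 of 836 peaks, and 37.5% (33.7 to 41.6) at 125 to 150. At 150 to 200 it was 22.5% (19.5 to 25.8), and at 200 to 300 it was 9.40% (7.39 to 11.9). Only 4 of 231 peaks scoring 300 to 400 were 1.5 h-only, and none of the 301 peaks of 400 or more was, where the interval ends at 1.26%. All intervals cover counting error only.

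Width showed the same order. Among peaks of 150 to 200 bp, 50 of 81 were 1.5 h-only, or 61.7% (50.8 to 71.6). At 300 to 350 bp the share was 37.2% (32.8 to 41.8), and at 500 bp or more it was 6.13% (4.62 to 8.07), with 46 of 751. A wider peak has more bases that can overlap another peak, so the choice itself bears on width. Nothing is therefore read from differences in width. Within each score band up to 200 the 1.5 h-only regions were also somewhat narrower than the held peaks. Their median scores within these bands were slightly lower too, so the scores were close but not equal. Median widths were 295 bp in 1.5 h-only regions and 309 bp in held peaks at scores of 100 to 125, and 331 bp and 361 bp at 125 to 150. At 150 to 200 they were 382 bp and 398 bp. At 200 to 300 they were 449 bp and 457 bp, and at 300 to 400, with only 4 regions, the order was reversed (547.5 bp and 531.5 bp). The interquartile ranges overlapped in each of these bands, for example 235 to 357 bp in 1.5 h-only regions and 263 to 376 bp in held peaks at 100 to 125.

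**Figure D2:**
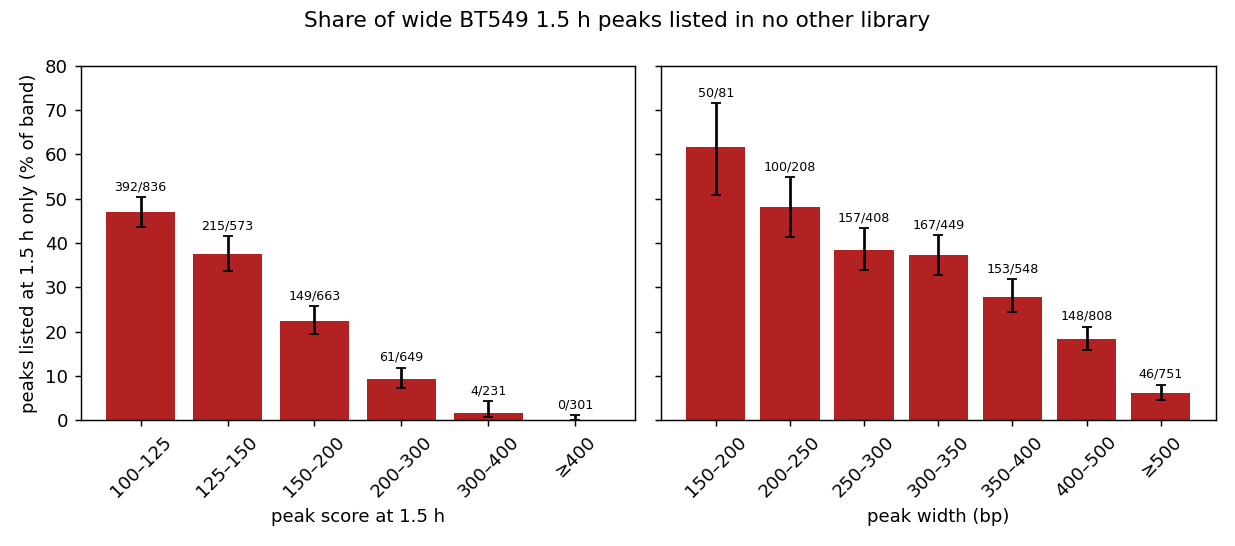
Share of BT549 1.5 h peaks within the width and score limits that were listed in no other library, by score (left) and by width in bp (right); bars start at 0, error bars are 95% Wilson intervals, and the numbers are 1.5 h-only regions over all peaks of the band. The share falls from 46.9% in the lowest score band to none of 301 in the highest, and from 61.7% in the narrowest width band to 6.13% in the widest.

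Among the held peaks, 16 h scores were higher where 1.5 h scores were higher; the 16 h list begins at a score of 50. Of held peaks scoring 100 to 125 at 1.5 h, 33.4% (29.1 to 38.1) had a 16 h score under 75, and their median 16 h score was 88.5. At 200 to 300 the share under 75 was 13.0% (10.5 to 16.0), with a median of 146, and at 400 or more 2 of 275 were under 75. The 16 h scores depend on the depth of that library, and no 16 h value exists for the 1.5 h-only regions themselves.

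The region of highest score was on chromosome 1, 51443068 to 51443707 (hg19, as all positions here), 640 bp wide with a score of 392. It stood 98 bp from another 1.5 h peak, 51443806 to 51444286, with a score of 311, and that neighbour overlapped a BT549 16 h peak (score 124) and a Hs578T 1.5 h peak (score 76.2). Thus this leading region adjoined a site listed in BT549 at both times, and only its own stretch lacked a later peak. The next, chromosome 3, 67697882 to 67698341 (460 bp), scored 384 and lay 6.25 kb from the nearest 16 h peak, which belonged to a neighbouring site with a 1.5 h score of 353. The region on chromosome 6, 74290123 to 74290757 (635 bp), scored 332 and was isolated, with its nearest 16 h peak 51.3 kb away and its nearest other 1.5 h peak 114 kb away.

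A region on chromosome 1, 59622532 to 59622859 (328 bp), scored 326 and lay 5.51 kb from a second early peak (score 237) that also had no 16 h peak. These first 4 were the only regions of the group with scores above 300. The regions ranked next differed in their distance to later binding. Chromosome 3, 106147471 to 106147746 (276 bp), scored 288 and was 233 kb from a 16 h peak. Chromosome 3, 122252638 to 122253197 (560 bp), scored 284 and was 132 kb away. Chromosome 1, 171372343 to 171372925 (583 bp), scored 275 and was 31.0 kb from a BT549 16 h peak, though only 2.04 kb from a weak Hs578T 16 h peak with a score of 54.4.

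The last of the leading 10 were pairs of early peaks with no late partner. Chromosome 17, 61510573 to 61510947 (375 bp), scored 271, and a second 1.5 h peak with a score of 90.0 began 25 bp further on. Chromosome 21, 44581855 to 44582622 (768 bp), scored 269, with a second early peak (score 128) 399 bp away and the nearest 16 h peak 332 kb away. Chromosome 2, 201809404 to 201809882 (479 bp), scored 268, with an early peak of score 68.2 at 112 bp and a 16 h peak no nearer than 106 kb. Of these 10 regions, 3 had a BT549 16 h peak within 10 kb, 6 had another 1.5 h peak within 10 kb and 4 were over 100 kb from any 16 h peak.

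**Figure D3:**
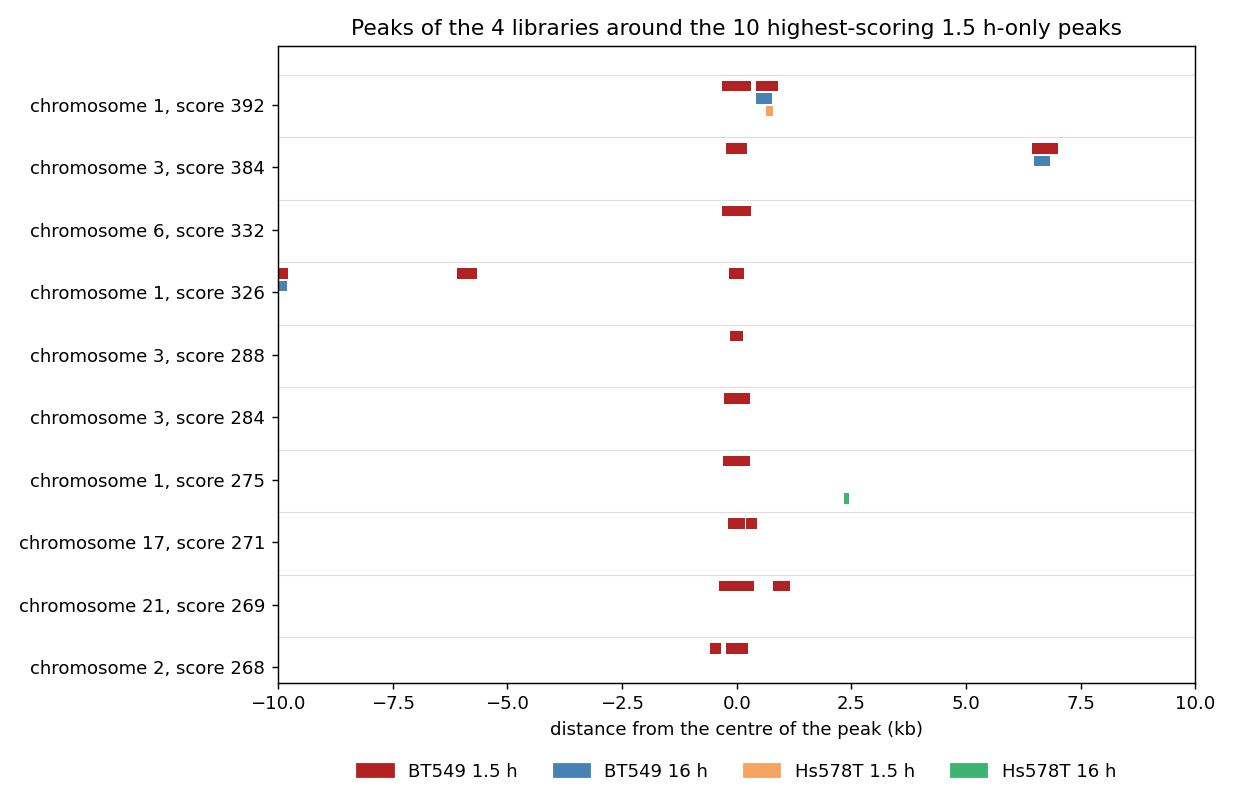
Peaks of all 4 libraries within 10 kb of the centre of each of the 10 highest-scoring 1.5 h-only regions, 1 row per region in order of score; bars are peaks drawn to scale, coloured by library. A 16 h BT549 peak (blue) appears in 3 of the 10 rows, and a Hs578T peak in 2.

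The widest regions were on chromosome 7, 43687362 to 43688156 (795 bp, score 239), and at the chromosome 21 site above. They were followed by chromosome 8, 64132848 to 64133592 (745 bp, score 215), chromosome 10, 69895678 to 69896335 (658 bp, score 257), and the leading chromosome 1 region. All 5 had scores above the group's median of 127.

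At the other end, 5 regions lay just inside the score limit, with scores of 100.05 to 100.3. They began at 30003451 on chromosome 10, 50973915 on chromosome 12, 46084575 on chromosome 22, 54778924 on chromosome 14 and 205648913 on chromosome 1, and were 213 to 348 bp wide. Just outside it, with 99.8 to 99.9, were peaks that began at 50505262 on chromosome 14, 33435745 on chromosome 2, 122513215 on chromosome 11, 10098283 on chromosome 4 and 11085686 on chromosome 16, 185 to 315 bp wide. The limit cut through a continuous range of values, and 3589 further peaks of lower score met the rest of the rule.

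By width, the regions just inside were chromosome 2 from 19849653 and chromosome 1 from 238213592, both 151 bp wide. With them came chromosome 17 from 45907739 and chromosome 18 from 69197073, both 152 bp, and chromosome 19 from 18385706, with 154 bp; the scores of these 5 ran from 106 to 136. Under 150 bp, 551 peaks met the rest of the rule. The highest-scoring of these were 88 to 94 bp wide, on chromosome 1 from 186799741 (score 321) and from 82250415 (284), chromosome 22 from 29682686 (292), chromosome 7 from 148566361 (290) and chromosome X from 112304574 (279). Unlike the regions just under the score limit, these narrow peaks were among the higher scores of the list.

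Absence of a 16 h peak did not always mean absence of later binding nearby. Of the 821 regions, 110 had a BT549 16 h peak within 1 kb, or 13.4% (11.2 to 15.9). A further 151 (18.4%) had one at 1 to 10 kb, 293 (35.7%) at 10 to 100 kb, and 267 (32.5%) had none within 100 kb. Regions of these 4 distance classes had median scores of 123, 131, 128 and 123, so that score and isolation from later binding were nearly unrelated (Spearman's rho -0.02 over 821 regions).

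Sites listed in BT549 at both times, with or without a Hs578T peak, adjoined most of the close cases. In 80 of the 110 the 16 h peak also overlapped a different 1.5 h peak, so the early region stood beside such a site. For the remaining 30 regions, the nearby 16 h peak overlapped no 1.5 h peak, and the early and late calls lay side by side. The closest of these, and of all 110, was chromosome 1, 154976471 to 154976985 (score 150), where a 16 h peak of score 77.1 ended on the base before. Chromosome 6, 144605826 to 144606210 (score 106), likewise lay 13 bp from a 16 h peak that overlapped no 1.5 h peak. The next closest regions stood beside 16 h peaks that also overlapped a different 1.5 h peak. On chromosome 6, the region 134496090 to 134496500 (score 246) was 4 bp from a 16 h peak with a score of 56.8, and 113441446 to 113441706 (score 114) was 5 bp from one with 420. Chromosome 17, 42619732 to 42620013 (score 193), was 13 bp from a 16 h peak with a score of 119.6. In the chromosome 6 case from 113441446, the strong neighbour was present at both times, with 420 at 16 h and 478 at 1.5 h.

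Neighbouring SMAD2/3 peaks were compared within score bands, since the 1.5 h-only regions had lower scores than the held peaks. At scores of 100 to 125, another 1.5 h peak lay within 10 kb of 40.1% (35.3 to 44.98) of the 1.5 h-only regions and 55.6% (50.8 to 60.3) of the held peaks, and these intervals did not overlap. At 125 to 150 the shares were 47.0% (40.4 to 53.6) and 52.4% (47.0 to 57.7), and at 150 to 200 they were 51.0% (43.1 to 58.9) and 52.2% (47.8 to 56.6). At 200 to 300 they were 44.3% (32.5 to 56.7) and 57.3% (53.2 to 61.3). Of these 4 bands, the intervals were thus apart in the lowest and overlapped in the other 3. A held peak and its 1.5 h neighbour can lie under the same 16 h peak, and 1.5 h-only regions, by their choice, overlap no 16 h peak. The share with a close neighbour is therefore tied to how both groups were chosen. For this reason nothing is read from these differences or from the pooled one that follows, and none was tested. Pooled over scores of 100 to 200, with 756 of the 821 regions and 1249 of the 2307 held peaks, the shares were 44.2% (40.7 to 47.7) and 53.4% (50.6 to 56.2), but 392 of the 756 regions and 419 of the 1249 held peaks scored under 125, so the pooled values do not compare equal scores.

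A 16 h peak other than an overlapping one lay within 10 kb of 29.3% (25.05 to 34.0) of the 1.5 h-only regions and 41.8% (37.1 to 46.5) of the held peaks at scores of 100 to 125. The shares were 35.8% (29.7 to 42.4) and 41.7% (36.5 to 47.0) at 125 to 150, and 34.2% (27.1 to 42.2) and 40.7% (36.4 to 45.1) at 150 to 200. At 200 to 300 they were 24.6% (15.5 to 36.7), or 15 of 61 regions, and 46.4% (42.3 to 50.5). The share was lower around the 1.5 h-only regions in each of these 4 bands. The intervals overlapped at 125 to 150 and at 150 to 200. At 300 to 400, with only 4 regions, the order was reversed, with 3 of the 4 and 44.4% of held peaks. The 16 h list was also used to choose both groups, and only held peaks had an overlapping 16 h peak to leave out. Nothing is therefore read from this difference. No test was made, and the intervals treat peaks as independent, which neighbouring peaks are not.

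**Figure D4:**
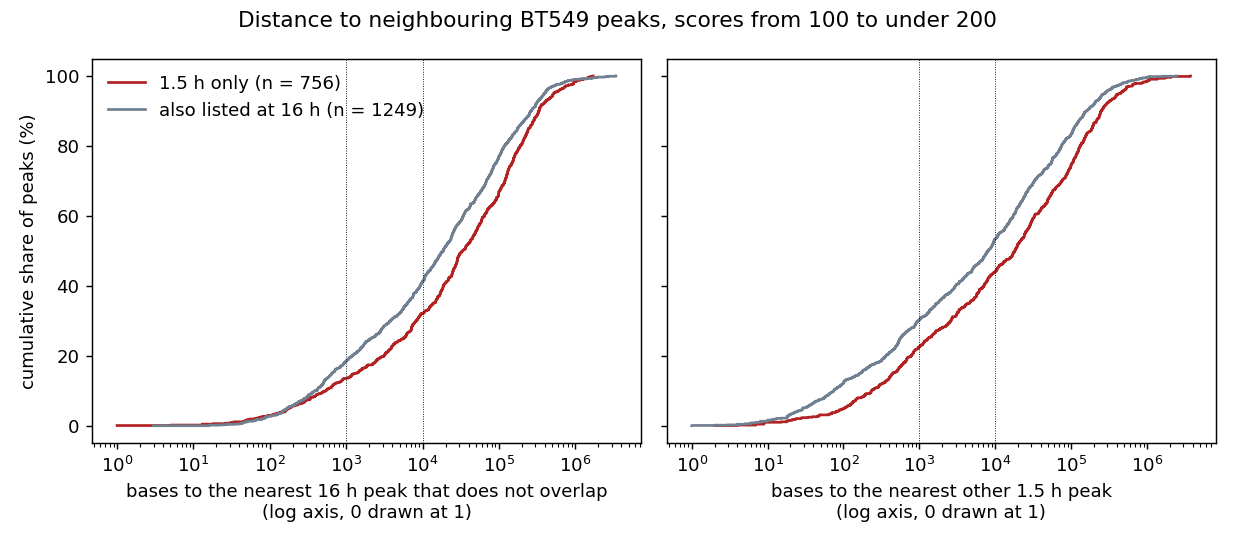
Cumulative share of peaks against the distance in bases (log axis) to the nearest 16 h peak that does not overlap (left) and to the nearest other 1.5 h peak (right), for 756 1.5 h-only regions (red) and 1249 held peaks (grey) with scores from 100 to under 200; dotted lines mark 1 kb and 10 kb. The red curve runs below the grey one at both lines, with 44.2% and 53.4% of peaks reached at 10 kb on the right. Scores within this range are lower in the 1.5 h-only regions, and overlap with 16 h peaks was used to choose both groups.

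Many neighbours of the 1.5 h-only regions were listed at both times. Within 10 kb of the 821 regions there were 553 distinct other 1.5 h peaks, and 256 of them, or 46.3% (42.2 to 50.5), overlapped a 16 h peak. Within 100 kb there were 1593, of which 735, or 46.1% (43.7 to 48.6), did. Of all 9225 peaks of the BT549 1.5 h list, 58.6% had no 16 h peak and the rest had one. Peaks with a 16 h peak are thus common throughout the list, and the shares are not read as a trait of these surroundings. A neighbour with a 16 h peak stood within 10 kb of 208 of the 821 regions, and within 1 kb of 83. No comparison with the held peaks was drawn from these shares, because a held peak and its neighbour can lie under the same 16 h peak, which the choice of the 1.5 h-only regions does not allow them.

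Most of the regions stood apart from one another. Joined when no more than 10 kb apart, the 821 regions formed 742 single regions, 38 pairs and 1 run of 3. With every BT549 1.5 h peak counted, 364 of the 821, or 44.3%, had another peak within 10 kb. The closest pairs were on chromosome 21, 45132107 to 45132449 and 45132459 to 45132777 (scores 111 and 114), and on chromosome 8, 74002263 to 74002552 and 74002562 to 74002919 (137 and 148), each with 9 bp between. On chromosome 17, 28037838 to 28038102 and 28038151 to 28038402 (197 and 131) were 48 bp apart. Regions this close may not be separate sites, so 821 is a count of listed regions.

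On a fixed grid of 1 Mb, 628 windows held a region, and 480 held exactly 1. The fullest was chromosome 20 from 49000001 to 50000000, with 6 of the regions. It had 10 BT549 peaks at 16 h and 21 at 1.5 h, of which 14 met the width and score limits. Its regions began at 49039693, 49055545, 49360785, 49379043, 49962066 and 49977755, with scores of 104 to 202. The window thus held 3 loose groups, not 1 site.

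Chromosome 1 from 234000001 to 235000000 held 5 of the regions, with 7 BT549 peaks at 16 h and 15 at 1.5 h, 10 of them within the limits. The other window with 5 was chromosome 22 from 46000001 to 47000000, with 11 at 16 h and 15 at 1.5 h, 9 of them within the limits. These windows were picked for their counts, so no share is read from them. In the chromosome 1 window the 5 regions fell between 234746684 and 234859671, at scores of 103 to 137, and Hs578T had 1 peak at 16 h and 4 at 1.5 h in the window. Neither the chromosome 20 nor the chromosome 22 window had a Hs578T peak at either time.

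All autosomes and chromosome X held 1.5 h-only regions, in unequal shares. Of the peaks within the width and score limits, the 1.5 h-only share was 35.3% (28.5 to 42.6) on chromosome 2, with 61 of 173, and 34.0% (25.4 to 43.9) on chromosome 17, with 33 of 97. It was lowest on chromosome 9, with 16.0% (11.5 to 22.0) or 30 of 187, and on chromosome 8, with 17.6% (13.1 to 23.1) or 39 of 222. These were the 4 of 23 chromosomes whose interval left out the value over all chromosomes, 25.2%, and no adjustment was made for looking at 23.

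The same chromosomes were on the same side when both groups were limited to scores of 100 to 200. Chromosome 2 then held 7.01% (5.40 to 9.06) of the 1.5 h-only regions and 4.88% (3.82 to 6.22) of the held peaks, and chromosome 17 held 4.23% (3.01 to 5.91) and 2.64% (1.89 to 3.69). Chromosome 8 held 4.37% (3.12 to 6.07) of the 1.5 h-only regions and 6.57% (5.32 to 8.08) of the held peaks, and chromosome 9 held 3.84% (2.68 to 5.45) and 6.08% (4.89 to 7.55). Within this score range each pair of intervals overlapped. Scores in the range were lower in the 1.5 h-only regions, so these pairs do not compare equal scores. Chromosome copy number in BT549, which sets how many reads a chromosome yields, was not measured here.

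**Figure D5:**
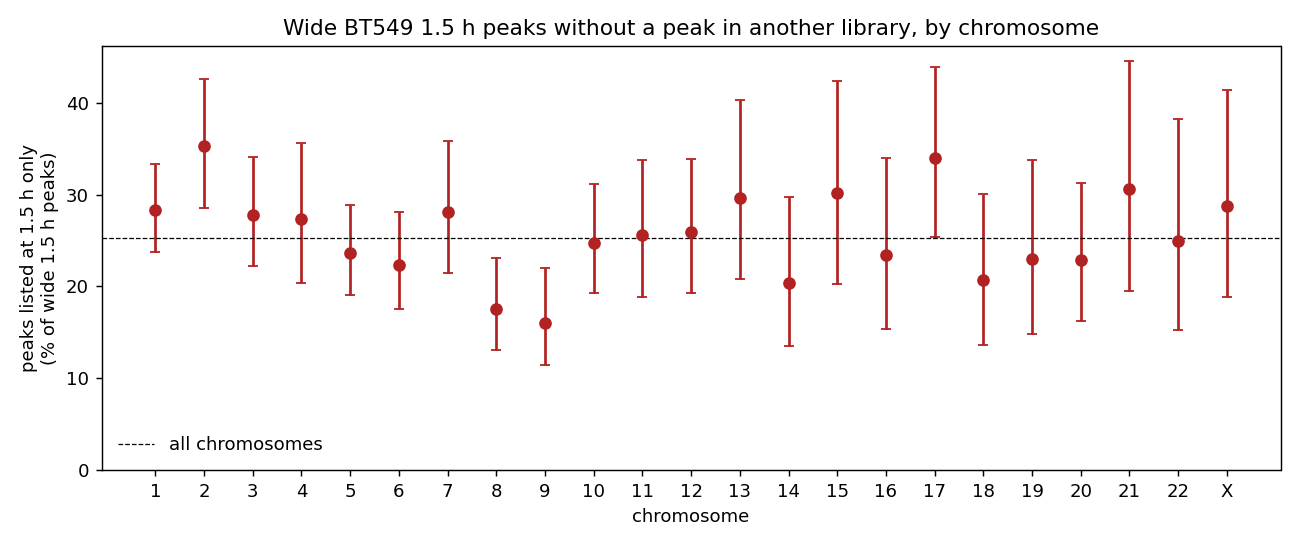
Share of BT549 1.5 h peaks within the width and score limits that were listed at 1.5 h only, by chromosome; points are shares, bars are 95% Wilson intervals, and the dashed line is the share over all chromosomes, 25.2%. Chromosomes 2 and 17 lie above the line and chromosomes 8 and 9 below it with intervals that do not reach it.

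Hs578T peaks were rarely close to the 1.5 h-only regions or to the held peaks. Overlap with a Hs578T peak excluded a peak from both groups, so this is not a trait of the 1.5 h-only regions. A Hs578T peak of either time lay within 10 kb of 34 of the 821, or 4.14% (2.98 to 5.73), and of 96 of the 2307 held peaks, or 4.16% (3.42 to 5.06), and both intervals spanned both values. Among the 1.5 h-only regions, the nearest was on chromosome 2, 203241310 to 203241569 (score 134), with a Hs578T 16 h peak 145 bp away. It was followed by chromosome 1 from 234859351 (291 bp), the leading chromosome 1 region (316 bp), chromosome 12 from 1099934 (431 bp) and chromosome 17 from 17824684 (437 bp). The Hs578T peaks at these 5 places scored 51.6 to 76.2 in their own lists.

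A further 17 wide BT549 1.5 h peaks of this score range had no BT549 16 h peak but overlapped a Hs578T peak, and so were left out. Their scores ran from 101 to 228, with a median of 148. The highest was chromosome 12, 48744862 to 48745182, with 228, which overlapped a Hs578T peak of score 60.6 at 1.5 h. One of them, chromosome 10 from 74020781 to 74021041 (score 114), overlapped a Hs578T 1.5 h peak with a score of 656 in its own list, and was 25 bp from a BT549 16 h peak.

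The counterpart of these regions at the later time was a smaller group. Under the same rule, 213 peaks were listed only in BT549 at 16 h, which is 10.1% (8.89 to 11.5) of the 2109 peaks of that list within the limits. Median width was 330 bp in the 1.5 h-only regions and 331 bp in the 16 h-only peaks, whose median score was 118 in their own list. A 16 h peak lay within 10 kb of 31.8% (28.7 to 35.1) of the 1.5 h-only regions. For the 16 h-only peaks, 31.9% (26.0 to 38.5) lay within 10 kb of a 1.5 h peak. Spacing within the own list differed more. There another peak lay within 10 kb of 44.3% (41.0 to 47.8) of the 1.5 h-only regions and 31.0% (25.2 to 37.5) of the 16 h-only peaks. The lists differ in length and each served to choose the other group, so nothing is read from these shares. The number of 1.5 h-only regions depends on the depth of both libraries, and a difference in depth and a difference in binding cannot be told apart here.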

How the data were processed

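The deposited files are peak lists, 1 per ChIP library, with positions and a score per peak assigned by the authors' peak caller. Bowtie 1.1.0, Picard and MACS 1.4.2 with hg19 were used, per the submitters' processing notes; no label, header or note used here states their settings or whether input served as background. The lowest deposited scores, 50.01 and 50.02, fit 10 times the −log10 of a p-value of 1e-05.

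Regions were selected by width, score and lack of any 1 bp overlap, and positions are counted from 1. Distances are bases between peak ends. Shares carry 95% Wilson intervals. Depth is unknown. Overlaps and distances were tested on simulated peaks. Regions, limits and comparisons were chosen with earlier results of these data known. The regions named are the extremes of score, width, distance and crowding, as stated with each.

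No hg19 sequence or annotation was used here, and the gene and promoter tables at hand are on GRCh38, so genes, promoters, motifs and sequences are not reported and the gene lists drawn up were not applied. Python 3.11.15, numpy 2.4.6, pandas 2.3.3, scipy 1.17.1 and matplotlib 3.10.9 were used.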

Additional observations from a re-analysis of the deposited data

Results flagged for a closer look

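The number of wide peaks listed in a single library moved in opposite directions over time in the 2 lines. In BT549 the number listed at 16 h only was 0.259 times the number listed at 1.5 h only, with 213 and 821 peaks. In Hs578T it was 49.5 times as high, with 99 peaks at 16 h only and 2 at 1.5 h only. The Hs578T counts were 29.5% of 336 peaks within the limits at 16 h and 1.29% of 155 at 1.5 h. Those of BT549 were 10.1% of 2109 at 16 h and 25.2% of 3253 at 1.5 h. The difference between the lines was not tested, which 1 library for each line and time does not allow. Read depth, which is not known, bears on all 4 counts.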

How the results depend on the processing

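The count of 821 regions moved most with the score limit. It was 2077 at scores of 75 or more, 214 at 150 or more and 65 at 200 or more, 514 at widths of 300 bp or more, 544 with no peak of another list within 10 kb, and 1641 when only peaks scoring 100 or more could exclude a region. It stayed within 1.5 times of 821 under the other 8 settings, from 707 (nothing within 1 kb) to 1174 (sharing needs 50% of both peaks). The share within 10 kb of a 16 h peak, 31.8%, was 13.4% at 1 kb, 67.5% at 100 kb and 27.7% for scores of 200 or more. The share within 10 kb of another 1.5 h peak, 44.3%, was 22.8% at 1 kb, 75.5% at 100 kb and 49.5% for scores of 150 or more. Both shares stayed inside their own intervals under the other settings. Leaving out the 7 regions within 1 Mb of the edges of the longest peak-free stretch of a chromosome was added after seeing the data. Shares near transcription starts and motif shares were not run. No paired analysis was possible because each line and time has 1 library.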
